A study of Mus musculus with 11 samples.

Results

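Platelets are activated through receptors that carry an immunoreceptor tyrosine-based activation motif (ITAM). The genes of this pathway were followed in hematopoietic stem cells sorted by surface CD41. The set comprised 10 genes, chosen by name from 49585 entries of the count table: the receptor genes Gp6, Fcer1g, Clec1b and Mpig6b, the signalling enzymes Syk and Plcg2, and Plek, Rab27b, P2rx1 and Rgs18, which act beside or below them. The choice was made with earlier results of these data known. All 10 were found in the table, and 8 had enough counts to be tested. In CD41+ cells 2 of these 8 were called more abundant at an adjusted p under 0.05, pleckstrin (Plek) and the small GTPase Rab27b, where 5.38% of all genes tested were called in either direction. Both of these calls were lost with myeloid markers as a covariate (adjusted p = 0.108 and 0.187). In that fit the calls over all genes fell from 724 to 93. At 24 h after platelet depletion 2 of the 8 were called less abundant, Plek and the ATP-gated channel P2rx1, where 6.33% of all genes tested were called. Gp6 had no count in any library.

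The cells were Lin- c-Kit+ Sca-1+ CD48- CD150+ bone marrow cells of C57BL/6 mice, and 1000 of them, pooled from 3 mice, went into each library. Control mice had received rabbit serum and the others had their platelets depleted 24 h earlier; the sources used here name neither the depleting agent nor the age and sex of the mice. The 4 groups were control CD41- (n = 3), control CD41+ (n = 2), depleted CD41- (n = 3) and depleted CD41+ (n = 3) cells, all without a genetic change named in the labels. The labels call the libraries biological replicates, and a group of 2 or 3 pools limits what a test can detect.

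The count totals ran from 0.974 M in depleted CD41+ replicate 1 to 9.95 M in depleted CD41- replicate 1, with a median of 3.88 M. Levels are given in CPM, which sets each count against the size of its library, after TMM normalisation, as mean ± SD. Differences are log2 fold changes ± SE from the quasi-likelihood test of edgeR, with p adjusted by Benjamini-Hochberg over the 13448 genes tested and called at 0.05. Itga2b, the gene of CD41, matched the sort, with 170 to 425 CPM in the 5 CD41+ libraries and 37.5 to 98.5 CPM in the 6 CD41- libraries. All 10 stem cell markers examined were detected in every group. Markers of neutrophils were abundant as well, with the 12 genes adding up to between 4419 and 37023 CPM in CD41- libraries and between 15148 and 84391 CPM in CD41+ libraries, the highest sum in control CD41+ replicate 2.

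In platelets, GPVI (from Gp6) binds collagen and relies on the Fc receptor gamma chain (from Fcer1g) for its ITAM. CLEC-2 (from Clec1b) binds podoplanin and itself carries a shortened form of the motif. Once phosphorylated by Src-family kinases, the motif recruits the kinase Syk, which leads to activation of phospholipase C gamma 2, calcium release and granule secretion. The receptor G6b-B (from Mpig6b) carries inhibitory motifs and restrains this pathway. Stem cells that carry CD41 and megakaryocyte transcripts are known as a fraction with a leaning towards the platelet lineage.

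Promoters of 4 genes are shown because they stand for the range of behaviour in the set: Plek and P2rx1, which fell after depletion, Clec1b, a receptor gene with few counts, most of them in CD41+ cells, and Gp6, which had none. The sequences are from RefSeq on GRCm38.p6 and hold 250 bases before and 50 bases after the annotated start, written 5′ to 3′ on the strand of the gene. They lie at chr11:17008669-17008968 (Plek, minus strand), chr11:72998895-72999194 (P2rx1, plus strand), chr6:129397047-129397346 (Clec1b, plus strand) and chr7:4397695-4397994 (Gp6, minus strand). The RefSeq start of Plek lies inside the longer gene of GENCODE, from which positions below are taken. Capitals mark matches to AGATAA, a form of the site of GATA factors, on either strand.
Plek: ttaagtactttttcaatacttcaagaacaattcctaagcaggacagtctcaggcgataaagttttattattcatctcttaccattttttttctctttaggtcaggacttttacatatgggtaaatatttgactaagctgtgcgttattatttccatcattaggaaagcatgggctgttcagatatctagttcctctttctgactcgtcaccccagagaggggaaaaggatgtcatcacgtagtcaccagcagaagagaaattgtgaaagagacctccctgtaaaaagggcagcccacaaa
P2rx1: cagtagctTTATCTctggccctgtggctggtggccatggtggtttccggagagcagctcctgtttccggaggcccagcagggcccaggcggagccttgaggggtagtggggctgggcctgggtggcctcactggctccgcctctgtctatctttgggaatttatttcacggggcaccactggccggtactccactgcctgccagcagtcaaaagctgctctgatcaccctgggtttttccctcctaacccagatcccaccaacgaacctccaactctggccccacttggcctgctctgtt
Clec1b: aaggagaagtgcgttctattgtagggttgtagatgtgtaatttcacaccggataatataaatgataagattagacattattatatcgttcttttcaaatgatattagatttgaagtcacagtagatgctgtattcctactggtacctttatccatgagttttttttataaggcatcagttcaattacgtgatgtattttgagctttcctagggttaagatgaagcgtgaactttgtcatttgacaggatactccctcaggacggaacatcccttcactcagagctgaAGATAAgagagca
Gp6: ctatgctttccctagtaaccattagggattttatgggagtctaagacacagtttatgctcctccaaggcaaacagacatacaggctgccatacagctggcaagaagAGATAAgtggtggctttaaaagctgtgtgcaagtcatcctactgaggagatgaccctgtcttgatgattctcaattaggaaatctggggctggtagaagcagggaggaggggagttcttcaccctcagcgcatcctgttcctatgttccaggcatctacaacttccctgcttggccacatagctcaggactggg

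Entries were matched for 8 of the 10 genes, all but Rgs18 and Rab27b. On both strands, AGATAA for GATA factors, the letters AGGAAG for ETS factors and the letters TGTGGT for RUNX factors were searched, and none of the matches in these genes overlapped another. AGATAA was found in the promoters of Gp6, Clec1b, Mpig6b, Plcg2 and P2rx1, with 1 match in each, and in 11.2% of 32851 promoters of the same length. In Clec1b the match began 38 bases after the start, in Gp6 it began 144 bases before it, and in P2rx1 it lay on the opposite strand from 242 to 237 bases before it. AGGAAG was found in Fcer1g, with 2 matches, and in 35.4% of all promoters. TGTGGT was found in Fcer1g, with 1 match, and in Mpig6b, with 2, and in 16.8% of all promoters. Neither Plek nor Syk held a match to any of these letters in this window. The presence of a motif is a description of the sequence, and binding was not measured.

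Expressed per kilobase of exon, so that genes can be set beside each other, the set spanned a wide range of levels. The length joins all annotated exons of a gene, used in these cells or not, so places in this order are approximate. Averaged over the 11 libraries, Rgs18 stood at 234 CPM per kb and Fcer1g at 183 CPM per kb, higher than 98.2% and 97.8% of the genes tested. Plcg2 followed with 46.4, Plek with 27.1 and P2rx1 with 18.9 CPM per kb. These are values of abundant to moderately expressed genes. Rab27b stood at 6.25, Syk at 2.92 and Clec1b at 0.304 CPM per kb, so that the kinase next to the receptors was expressed at a level above only 34.3% of the genes tested. Some neighbours in this order could not be separated within a group: Rgs18 and Fcer1g reached 256 ± 85.7 and 285 ± 205 CPM per kb in control CD41+ cells, and Rab27b and Syk 3.97 ± 1.05 and 2.93 ± 0.728 CPM per kb in depleted CD41- cells. The place of Plek depended on the group. In control CD41+ cells its level per kb of 71.3 ± 2.59 was above that of Plcg2 (43.7 ± 4.02), and in depleted CD41- cells its 9.50 ± 4.63 was close to the 12.0 ± 1.96 of P2rx1. Cells were lysed in bulk, so fewer cells with a transcript and less of it per cell cannot be told apart in any of these values.

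**Figure D1:**
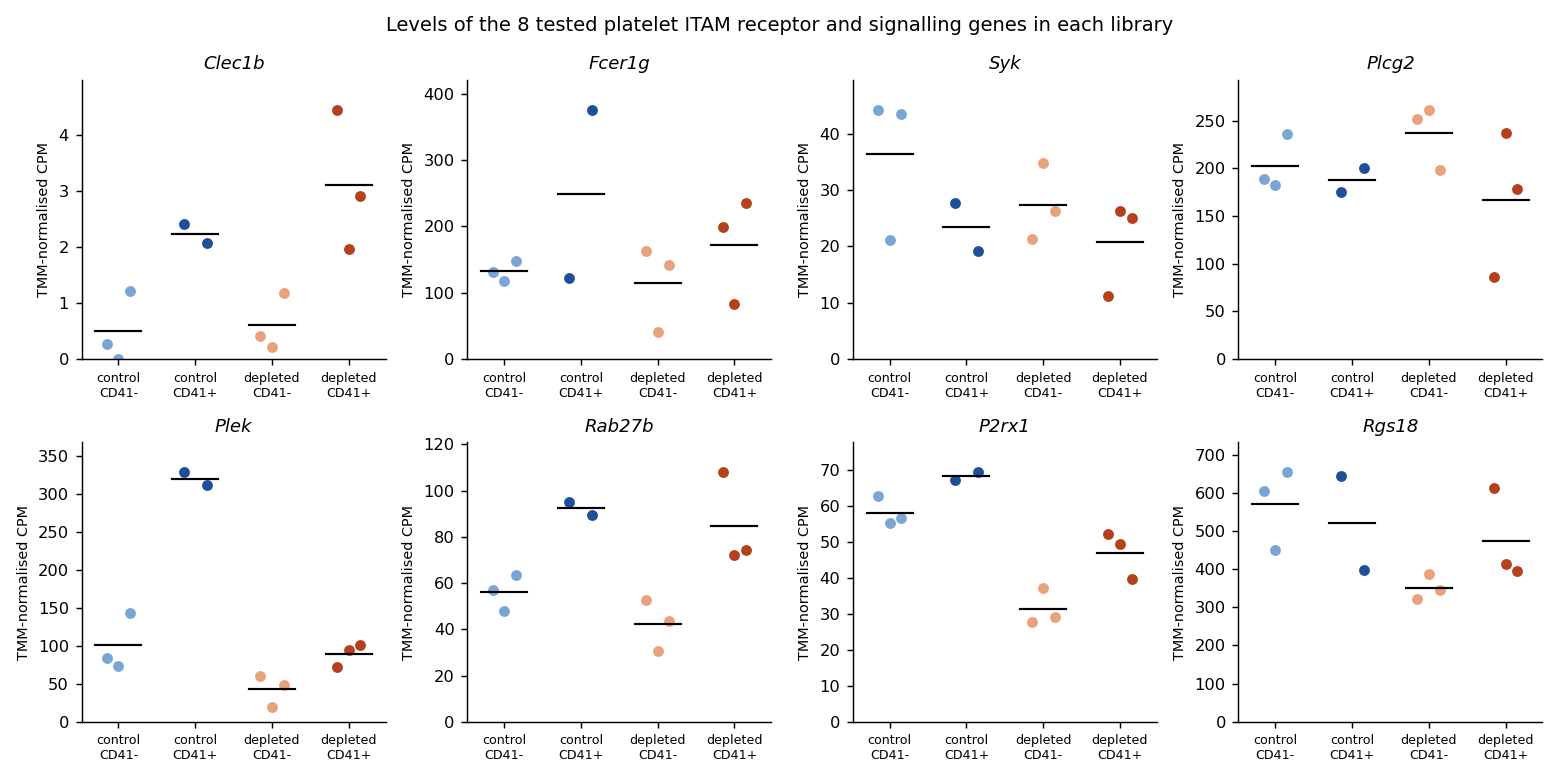
Level of each of the 8 tested genes in every library, as TMM-normalised CPM on linear axes that start at 0. Points are libraries, horizontal lines are group means. Plek is highest in the 2 control CD41+ libraries (311 and 328 CPM), and Plek and P2rx1 are lower in every depleted library than in every control library of the same fraction.

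Among the receptor genes, Gp6 (ENSMUSG00000078810, GRCm38 chromosome 7, 4363965 to 4397744, minus strand) had 0 counts in all 11 libraries. With 47.4 M counts in total, this allows a level of up to 0.0633 CPM over all libraries (limit of 3 counts). Its exons share no bases with another gene. The collagen receptor was thus not detectable at this depth, in CD41+ and CD41- cells alike.

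Clec1b (ENSMUSG00000030159, chromosome 6, 129397297 to 129409335, plus strand) was detected in 10 of 11 libraries with 57 counts in all. Its levels were 0.275, 0 and 1.22 CPM in control CD41- cells and 2.40 and 2.06 CPM in control CD41+ cells. After depletion they were 0.407, 0.209 and 1.18 CPM in CD41- cells and 4.45, 1.96 and 2.91 CPM in CD41+ cells. Clec1b reached the level of the filter on low counts (2.58 CPM) in 2 libraries, depleted CD41+ replicates 1 and 3, and so entered the test through the cells in which it is high. Every CD41+ library lay above every CD41- library, in control and in depleted mice, which is given as a description. The highest value rests on 4 counts in the shallowest library, where the limit of 3 counts corresponds to 3.08 CPM. The fitted difference of 2.18 ± 0.80 between the fractions (95% interval 0.46 to 3.91) had an adjusted p of 0.124 (unadjusted 0.0166) and did not pass. Summed over the libraries of a group, 6 counts in control CD41- cells gave 0.535 CPM (exact Poisson 95% interval 0.196 to 1.16) and 17 counts in control CD41+ cells gave 2.11 CPM (1.23 to 3.38). In depleted mice the sums were 10 and 24 counts, or 0.536 (0.257 to 0.986) and 2.54 CPM (1.62 to 3.77). These intervals and limits cover counting error only: the reads were amplified by PCR and carry no molecular identifiers, so they are not independent molecules. On the same strand, Clec1b shares 3.61% of its exon bases with Clec9a.

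Mpig6b (ENSMUSG00000073414, chromosome 17, 35062693 to 35066184, minus strand), the inhibitory receptor, had 17 counts in 3 libraries and was not tested. Control CD41- replicate 2 held 6 of them, control CD41+ replicate 2 held 3 and depleted CD41- replicate 1 held 8. Libraries of both fractions thus held counts, and 0 counts in the depleted CD41+ libraries allow up to 0.317 CPM there.

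Fcer1g (ENSMUSG00000058715, chromosome 1, 171229572 to 171234365, minus strand), the ITAM chain shared by GPVI and Fc receptors of myeloid cells, was abundant in every group. It stood at 131, 118 and 148 CPM in control CD41- cells and at 123 and 376 CPM in the control CD41+ libraries. Depleted mice gave 163, 40.4 and 142 CPM in CD41- cells and 199, 83.3 and 235 CPM in CD41+ cells. Fractions overlapped in both treatments, and treatments in both fractions. The SD was 15.0 CPM in control CD41- cells, and 179, 65.5 and 79.2 CPM in control CD41+, depleted CD41- and depleted CD41+ cells. The CD41 difference of 0.74 ± 0.44 (95% interval -0.26 to 1.74, adjusted p = 0.348) and the depletion difference of -0.37 ± 0.44 (-1.37 to 0.63, adjusted p = 0.691) did not pass.

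The 4 libraries highest in Fcer1g were also the 4 highest in summed neutrophil markers. Control CD41+ replicate 2 held the highest Fcer1g level and the highest sums, with 84391 CPM over 12 neutrophil markers and 7123 CPM over 10 macrophage and monocyte markers. Depleted CD41- replicate 2 held the lowest of all 3 values, with sums of 4419 and 734 CPM. Each of the 22 markers was detected in every group, and of them 1 macrophage gene was called higher in CD41+ cells. With the mean log2 level of these markers as a covariate, the CD41 difference of Fcer1g was -0.42 ± 0.23 (adjusted p = 0.445), and its depletion difference was -0.74 ± 0.17 (adjusted p = 0.0258). Without control CD41+ replicate 2 the depletion difference was 0.14, so its sign rested on that library.

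**Figure D2:**
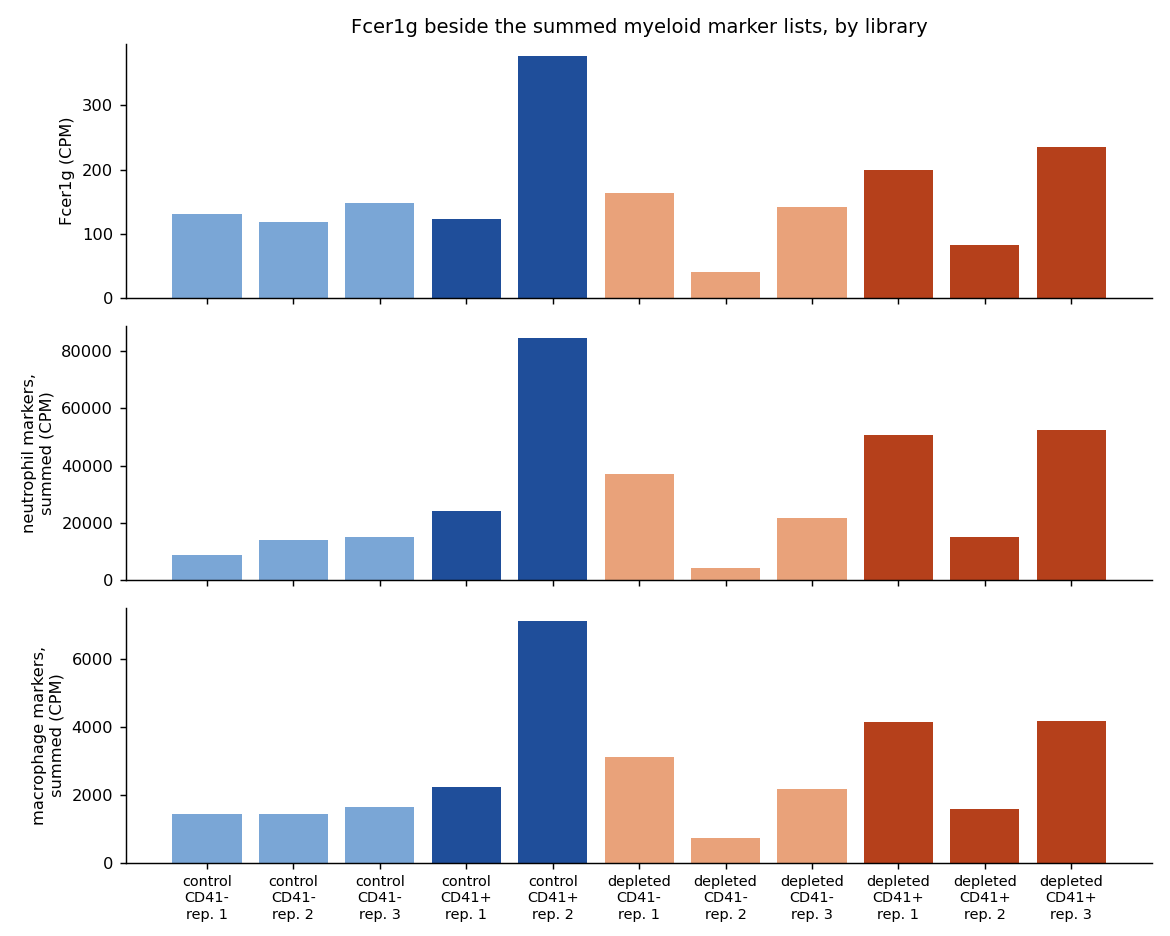
Fcer1g in each library (top, TMM-normalised CPM) above the summed levels of 12 neutrophil markers (middle) and 10 macrophage and monocyte markers (bottom), both in CPM. Bars are single libraries on axes that start at 0. Control CD41+ replicate 2 is highest in all 3 panels and depleted CD41- replicate 2 is lowest.

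Neither enzyme below the receptors passed the test in any comparison. Syk (ENSMUSG00000021457, chromosome 13, 52583173 to 52648792, plus strand) ranged from 21.2 to 44.3 CPM in control CD41- cells, with 27.8 and 19.1 CPM in control CD41+ cells. It ranged from 21.3 to 34.8 CPM in depleted CD41- and from 11.1 to 26.3 CPM in depleted CD41+ cells. The groups overlapped in all 4 pairings, with a CD41 difference of -0.48 ± 0.27 (adjusted p = 0.312) and a depletion difference of -0.26 ± 0.27 (adjusted p = 0.641). Plcg2 (ENSMUSG00000034330, chromosome 8, 117498291 to 117635142, plus strand), the phospholipase that Syk signalling activates, had group means of 203 ± 29.3 and 188 ± 17.3 CPM in control CD41- and CD41+ cells, and of 237 ± 34.2 and 167 ± 76.3 CPM in depleted ones. Its CD41 difference was -0.29 ± 0.20 (95% interval -0.72 to 0.13, adjusted p = 0.400) and its depletion difference was 0.04 ± 0.20 (-0.38 to 0.47, adjusted p = 0.933). The interval of the latter leaves room for changes of less than 0.5 on the log2 scale in either direction.

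Plek (ENSMUSG00000020120, chromosome 11, 16971206 to 17052381, minus strand), which encodes pleckstrin, a main substrate of protein kinase C in platelets, was the one gene of the set called for both factors. Control CD41- cells held 83.9, 73.8 and 143 CPM and control CD41+ cells 328 and 311 CPM. Depleted CD41- cells held 59.7, 19.5 and 48.7 CPM and depleted CD41+ cells 72.3, 93.9 and 101 CPM. Within each treatment every CD41+ library was above every CD41- library, and within each fraction every depleted library was below every control library, which left the depleted CD41+ libraries near the level of the control CD41- libraries. Averaged over treatments, CD41+ cells exceeded CD41- cells in Plek by 2.59-fold (1.37 ± 0.25 on the log2 scale, adjusted p = 0.00957). Averaged over fractions, it was 2.88-fold lower after depletion (log2 -1.53 ± 0.25, adjusted p = 0.00459). Of its exon bases, 4.44% overlap Cnrip1 on the other strand, and the sources used here do not say whether counting used strand.

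Within single groups, the Plek difference between fractions was 1.67 ± 0.37 (adjusted p = 0.0339) in control and 1.07 ± 0.35 (adjusted p = 0.313) in depleted mice. The first call was lost (adjusted p up to 0.150) when control CD41- replicate 1 or 2, control CD41+ replicate 1 or 2, depleted CD41- replicate 3 or depleted CD41+ replicate 2 was left out. The fall after depletion was -1.23 ± 0.34 in CD41- cells (adjusted p = 0.0780) and -1.82 ± 0.37 in CD41+ cells (adjusted p = 0.0949), and neither passed alone. Whether the response differed between fractions was tested directly, and the difference of -0.60 ± 0.51 (95% interval -1.69 to 0.50, adjusted p = 0.932) did not pass.

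Rab27b (ENSMUSG00000024511, chromosome 18, 69979131 to 70141605, minus strand), a GTPase that platelets need to form and release dense granules, was called for CD41 and not for depletion. Control CD41- cells held 57.2, 47.9 and 63.5 CPM and control CD41+ cells 95.1 and 89.5 CPM. After depletion the levels were 52.8, 30.6 and 43.8 CPM in CD41- cells and 108, 72.1 and 74.3 CPM in CD41+ cells. Every CD41+ library exceeded every CD41- library within its treatment. The difference was 1.79-fold (log2 0.84 ± 0.17, adjusted p = 0.0141), with 0.72 ± 0.25 (adjusted p = 0.143) in control and 0.97 ± 0.24 (adjusted p = 0.136) in depleted mice. With consecutive title numbers as a block, which no label describes as pairs, the difference in depleted mice was called (1.01 ± 0.18, adjusted p = 0.0244). The depletion difference of -0.27 ± 0.17 (95% interval -0.65 to 0.10, adjusted p = 0.391) did not pass.

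P2rx1 (ENSMUSG00000020787, chromosome 11, 72999103 to 73015200, plus strand), the channel through which released ATP lets calcium into platelets, was called for depletion and not for CD41. It stood at 62.7, 55.2 and 56.7 CPM in control CD41- cells and at 67.3 and 69.4 CPM in the control CD41+ libraries. Depleted mice gave 27.8, 37.3 and 29.1 CPM in CD41- cells and 52.3, 49.4 and 39.6 CPM in CD41+ cells. All 6 depleted libraries were below all 5 control libraries, whatever the fraction, and within a treatment the CD41+ libraries were the higher ones. The share of all genes with full separation by treatment was not counted. In the looser pattern within both fractions, 3.91% of all genes tested were lower in every depleted library. The fall after depletion was 1.65-fold (log2 -0.72 ± 0.15, adjusted p = 0.0148). It was -0.89 ± 0.20 in CD41- cells (adjusted p = 0.0295) and -0.55 ± 0.23 in CD41+ cells (adjusted p = 0.353), with a difference between the responses of 0.34 ± 0.31 (adjusted p = 0.937) that did not pass. The CD41 difference of 0.40 ± 0.15 (95% interval 0.08 to 0.73, adjusted p = 0.133) did not pass either. The average fall had an adjusted p of 0.0594 without control CD41+ replicate 1 and 0.0509 without replicate 2 of that group. The fall in CD41- cells was not called (adjusted p up to 0.146) without any 1 of the 3 control CD41- libraries, or without depleted CD41- replicate 1 or 3.

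Rgs18 (ENSMUSG00000026357, chromosome 1, 144752683 to 144775435, minus strand), which shortens the signals of G proteins and restrains platelet activation, was the most abundant of the set. It held 605, 450 and 654 CPM in control CD41- cells, against 323, 387 and 344 CPM in depleted CD41- cells. CD41+ cells held 644 and 398 CPM in control mice and 612, 413 and 396 CPM in depleted mice. The treatments did not overlap in CD41- cells, where 12.1% of all genes tested were lower in every depleted library, and they overlapped in CD41+ cells. Its average depletion difference was -0.42 ± 0.16 (95% interval -0.77 to -0.07, adjusted p = 0.148) and its CD41 difference 0.15 ± 0.16 (adjusted p = 0.626), and neither passed.

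Read as a set, 2 of the 8 tested genes were higher and 0 lower in CD41+ cells on average, where 5.38% of all genes tested were called, 2.73% as higher and 2.65% as lower. The median log2 fold change of the 8 was 0.57, and 0.40 over the 7 other than Clec1b, against -0.03 for all genes. In control mice 1 of 8 was called (Plek, with 2.62% of all genes called), and in depleted mice 0 of 8, with 0.193% of all genes called and 3 of the 8 and 9.18% of all genes at an unadjusted p under 0.05. After depletion, 2 of 8 were lower and 0 higher on average, where 6.33% of all genes were called, 2.73% as lower and 3.6% as higher, and the median was -0.32 against -0.01 for all genes. In CD41- cells 1 of 8 was called (P2rx1, with 3.19% of all genes called). In CD41+ cells 0 of 8 were called, where 0.104% of all genes were, and 2 of the 8 and 12.2% of all genes had an unadjusted p under 0.05. For the difference between the responses 0 of 8 and 0 of 13448 genes (0%) were called by edgeR, with 0 of 8 and 825 of 13448 at an unadjusted p under 0.05, and DESeq2 called 0 of 8 and 35 of all. These comparisons share libraries, so they do not count as separate evidence. The members were chosen with earlier results of these data known, so their shares and medians are given as a description. Scaled by library size alone, the genes called for CD41 on average split into 250 higher and 445 lower, in place of 367 and 357. In control mice they split into 129 higher and 157 lower in place of 212 and 140, and there the median over all genes was -0.15 in place of -0.03.

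Without regard to the test, Plek, Rab27b and P2rx1 were higher in every CD41+ library than in every CD41- library within both treatments, a pattern that 3.81% of all genes tested showed. Clec1b is left out of this count because it entered the test through CD41+ libraries. Plek and P2rx1 were lower in every depleted library within both fractions, as were 3.91% of all genes tested.

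**Figure D3:**
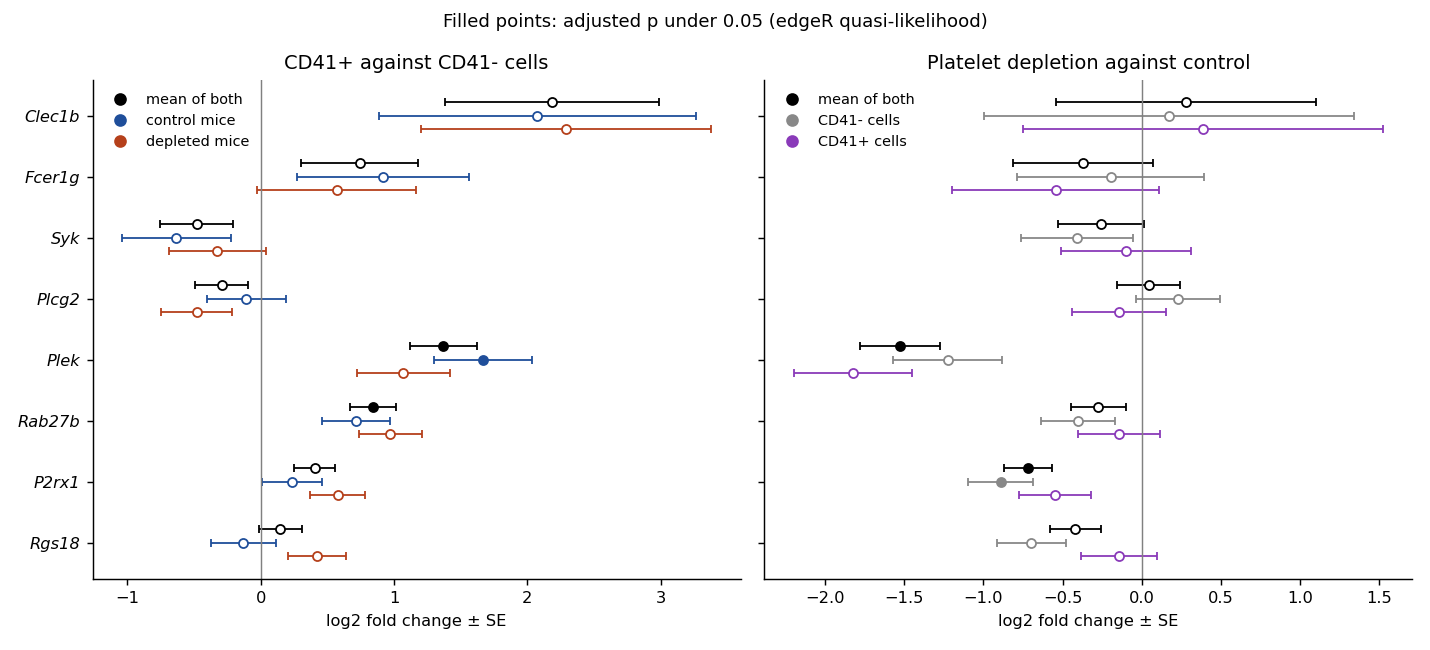
Log2 fold changes ± SE of the 8 tested genes between fractions (left) and treatments (right), averaged over the other factor (black) and within single groups (colours). Filled points passed at an adjusted p under 0.05. Plek stands to the right of 0 in all CD41 comparisons and to the left of 0 in all depletion comparisons, and the bars of Clec1b are the widest.

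Other markers, on lists written with earlier results of these data known, moved along with these changes. Of all genes tested, 2.73% were called higher and 2.65% lower in CD41+ cells. After depletion 3.6% were called higher and 2.73% lower. The megakaryocyte and platelet list holds Itga2b, the gene of the sort marker, so its count for CD41 is not independent of the sort. It also holds Treml1, which is described again below. Of 12 megakaryocyte and platelet markers, 7 were called higher in CD41+ cells and 6 lower after depletion, and their sums were 961 to 1493 CPM in control CD41-, 1330 to 1933 in control CD41+, 550 to 862 in depleted CD41- and 711 to 1069 CPM in depleted CD41+ libraries. Sums of the 12 neutrophil markers, of which 0 were called in either average, were 8694 to 15119, 24216 to 84391, 4419 to 37023 and 15148 to 52569 CPM in the same order. Sums of the 10 macrophage and monocyte markers were 1426 to 1625, 2226 to 7123, 734 to 3105 and 1580 to 4153 CPM. Sums of 12 erythroid markers, 1 of which was called higher in CD41+ cells, were 320 to 1407, 2061 to 2349, 301 to 1884 and 679 to 1782 CPM. Of 10 stem cell markers, 5 were called lower and 1 higher in CD41+ cells, and 3 were called lower after depletion. Their sums were 2434 to 3187 CPM in control CD41-, 1421 to 1980 in control CD41+, 1469 to 2024 in depleted CD41- and 632 to 1438 CPM in depleted CD41+ libraries. Of 8 tested endothelial and stromal markers, 3 were called higher and 1 lower in CD41+ cells and 0 after depletion, with sums of 130 to 168, 211 to 340, 111 to 403 and 307 to 521 CPM in that order. With the myeloid markers as covariate the CD41 differences were 1.10 ± 0.29 for Plek (adjusted p = 0.108) and 0.65 ± 0.21 for Rab27b (adjusted p = 0.187), and neither passed. This fit called 93 of all genes for CD41 on average, in place of 724. The centred marker score ran from -1.67 to 0.46 in CD41- and from -0.17 to 1.40 in CD41+ libraries, so it is not independent of the fraction. In that fit the average falls after depletion were -1.66 ± 0.25 for Plek (adjusted p = 0.00285) and -0.70 ± 0.15 for P2rx1 (adjusted p = 0.0206). The part of the megakaryocyte, erythroid, stem cell, endothelial and stromal sums in these differences was not tested.

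The rest of the cascade was read from 8 lists of 150 genes written from general knowledge, with earlier results of these data known. Of these genes, 148 were in the table and 139 could be tested. The shares called among them are therefore given as a description. In CD41+ cells 6 were higher and 9 lower, or 10.8% called in either direction against 5.38% of all genes tested. After depletion 1 was higher (Plek2, which entered the test mainly through depleted libraries) and 8 were lower, or 6.47% against 6.33%. In depleted mice alone 0 of 139 were called for CD41, where 0.193% of all genes tested were. For the difference of the depletion response between fractions, 0 of 139 and 0 of all 13448 genes were called.

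Among 12 tested receptors with ITAM, hemITAM or inhibitory motifs, 2 were higher and 0 lower in CD41+ cells. Treml1, a receptor stored in platelet granules, went from 5.80 ± 2.42 to 33.5 ± 12.0 CPM in control mice, and was called there as well (2.53 ± 0.50, adjusted p = 0.0176). Fcgr2b, the inhibitory Fc receptor, was higher by 1.60 ± 0.40 (adjusted p = 0.0371). After depletion 3 of the 12 were lower: Treml1 by -1.90 ± 0.35 (adjusted p = 0.00735), and Cd84 (-0.71 ± 0.15) and Cd300a (-0.60 ± 0.16), adhesion and inhibitory receptors of blood cells. The fall of Treml1 rests on low values. It held 1.53, 1.26 and 2.36 CPM in depleted CD41- cells, below the level of the filter (2.58 CPM). Depleted CD41+ cells held 7.79, 11.8 and 4.37 CPM. Of 11 Src-family kinases, which phosphorylate the ITAM, and their regulators, 0 were called in either average.

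At the level of Syk, 0 of 19 kinases and adaptors were called between fractions and 2 were lower after depletion. Lat, the membrane adaptor on which the complex with phospholipase C gamma assembles, held 55.0, 61.8 and 87.6 CPM in control CD41- and 80.2 and 63.0 CPM in control CD41+ cells. Depleted libraries held 40.6, 39.6 and 18.0 CPM in CD41- and 27.8, 32.9 and 42.8 CPM in CD41+ cells. All depleted libraries were thus below all control libraries (log2 -1.04 ± 0.23, adjusted p = 0.0169), a pattern whose share of all genes was not counted. The adaptor Skap2 was lower by -0.41 ± 0.11 (adjusted p = 0.0399). Of 17 inhibitors of the cascade, Sla, an adaptor that dampens receptor signalling, was higher in CD41+ cells (0.80 ± 0.14, adjusted p = 0.00521), also in control mice alone (0.97 ± 0.20, adjusted p = 0.0222), and 0 of the 17 were called after depletion, where their median log2 fold change was -0.27.

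Among 30 genes of phospholipase C output, PI3 kinase, protein kinase C, calcium and Rap1, 2 were higher and 3 lower in CD41+ cells. Rap1b, the GTPase that leads to integrin activation in platelets, was higher by 0.97 ± 0.14 (adjusted p = 0.00232). Lower were Pik3r1, a regulatory subunit of PI3 kinase (-0.98 ± 0.18), the calcium channel gene Orai1 (-1.27 ± 0.26) and Itpr3, an inositol trisphosphate receptor (-1.49 ± 0.40).

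Plek2, the paralog of pleckstrin, was higher in CD41+ cells (2.33 ± 0.53, adjusted p = 0.0221), like Plek, but moved the other way after depletion. Its levels were 0, 0.524 and 0 CPM in control CD41- cells and 2.14 and 3.35 CPM in the control CD41+ libraries. Depleted mice gave 6.11, 5.03 and 9.70 CPM in CD41- cells and 12.2, 14.5 and 11.4 CPM in CD41+ cells. Plek2 reached the level of the filter on low counts in all 6 depleted libraries and in 1 of 5 control libraries, so it entered the test mainly through the group in which it is high. Every depleted library was above every control library, which is given as a description. The fitted average rise was 3.65 ± 0.55 (adjusted p = 0.00191), and the adjusted p in CD41- cells alone was 0.00332. Because of the way Plek2 entered the test, neither value is taken as support for the rise. The fitted sizes, for CD41 as for depletion, depend on the prior count, because 2 of 3 control CD41- libraries held no count. The CD41 call of Plek2 therefore rests in part on values near 0.

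**Figure D4:**
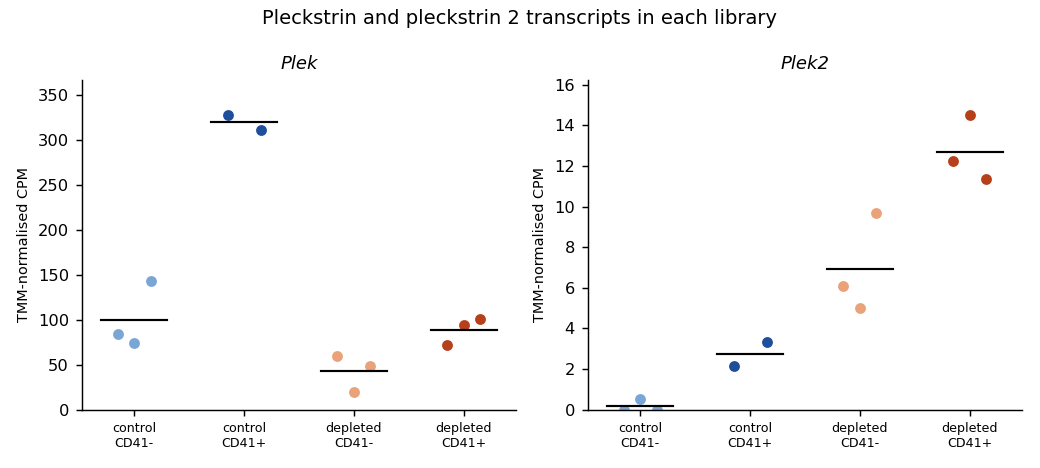
Plek (left) and Plek2 (right) in each library as TMM-normalised CPM on linear axes that start at 0 and differ in scale. Points are libraries and lines are group means. Plek falls from 311 to 328 CPM in control CD41+ cells to 72.3 to 101 CPM after depletion, and Plek2 rises from 2.14 and 3.35 to between 11.4 and 14.5 CPM.

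Of 20 RGS proteins and G protein subunits beside Rgs18, 4 were lower and 0 higher in CD41+ cells. Rgs1 was lower by -0.92 ± 0.20 (adjusted p = 0.0158), Gnaq, the alpha subunit of Gq, by -1.22 ± 0.28 (adjusted p = 0.0223), Ppp1r9b, the scaffold protein spinophilin, by -1.02 ± 0.27 and Gng2 by -0.53 ± 0.14. Gnaq was also called in control mice alone (-2.06 ± 0.43, adjusted p = 0.0236), with 30.3 ± 2.84 CPM in CD41- and 7.27 ± 4.45 CPM in CD41+ cells. In depleted mice its fractions were closer, at 13.4 ± 2.39 and 9.77 ± 2.69 CPM, and it was not called there. For the difference between the responses 0 of the 20 genes were called, so a dependence of this difference on treatment was not shown. After depletion Rgs1 was lower by -1.37 ± 0.19 (adjusted p = 0.00155), from 134 ± 16.3 to 43.0 ± 4.88 CPM in CD41- cells, and Gng2 by -0.53 ± 0.14. Of 11 purine receptors and related genes beside P2rx1, the ADP receptor P2ry1 was higher in CD41+ cells (1.64 ± 0.40, adjusted p = 0.0293) and P2ry14, a receptor for UDP sugars, was lower (-1.03 ± 0.16, adjusted p = 0.00387). P2rx4, another ATP-gated channel, was lower after depletion (-0.81 ± 0.15, adjusted p = 0.00582), as P2rx1 was. Of 19 genes of granule docking and release, 1 was called, the Rab27 effector gene Sytl1, which was lower in CD41+ cells (-1.30 ± 0.33, adjusted p = 0.0369), where Rab27b was higher. In control mice its fractions overlapped, with 19.3, 25.1 and 25.5 CPM in CD41- and 10.4 and 25.5 CPM in CD41+ cells (-0.37 ± 0.46, adjusted p = 0.706). Depleted mice gave 22.9, 20.1 and 18.4 CPM in CD41- and 4.45, 6.66 and 1.75 CPM in CD41+ cells (-2.22 ± 0.47, adjusted p = 0.0822). Neither single comparison passed, and the difference between the responses of Sytl1 was not called.

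**Figure D5:**
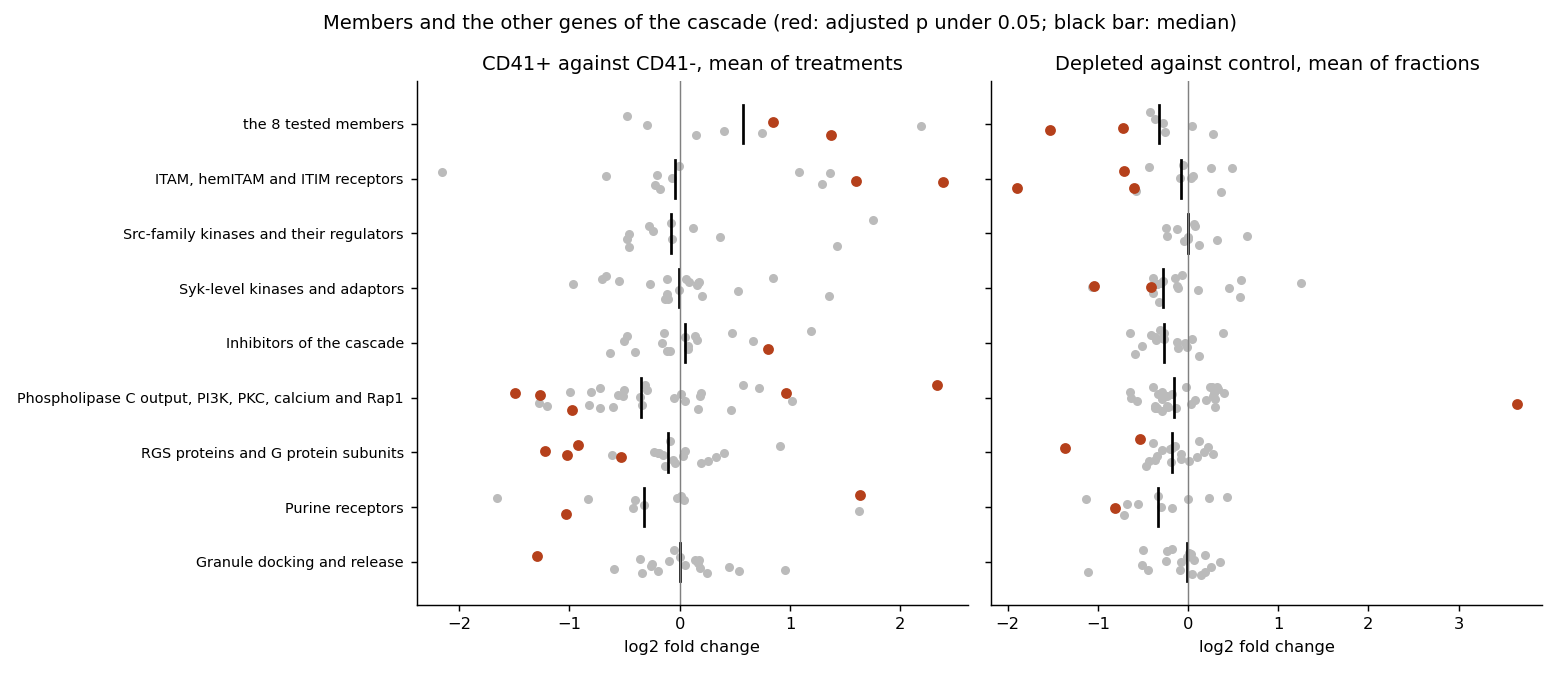
Log2 fold changes of the 8 tested genes and of 139 further genes of the cascade, by list, between fractions (left) and treatments (right). Each point is a gene, red points passed at an adjusted p under 0.05 and black bars are list medians. For CD41, the medians of the lists of further genes lie between -0.35 and 0.04, and that of the 8 tested genes is 0.57. It is 0.40 over the 7 other than Clec1b, which entered the test through CD41+ libraries. The red point far to the right after depletion is Plek2.

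By the root mean square difference of centred log2 CPM over the 11 libraries, the genes closest to Clec1b were Cavin2 (0.50), Clu (0.57), Hspd1-ps3 (0.59) and B230377A18Rik (0.62), where Clec1b itself varied by 1.05. For Plek, a comparison chosen after its values were seen, they were Cldn1 (0.53), Trim10 (0.57), Klf1 (0.61) and Adamtsl5 (0.66), where Plek varied by 1.09. Klf1 stands on the erythroid marker list. All genes were read from the same libraries, so likeness also takes in what a library as a whole carries.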

How the data were processed

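Per the labels' protocols, RNA of sorted cells was turned into cDNA from a dT primer with template switching, amplified by PCR, tagmented and sequenced. Per the submitters' processing notes, reads were processed with cutadapt, STAR and HTSeq 0.6.1p1, with GRCm38 and mm10 as builds. The deposited values are the authors' raw counts per gene. For the counting, the sources used here give neither annotation release nor strand setting. Counts were joined to symbols, positions and exon lengths of GENCODE M21.

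The filter filterByExpr (minimum count 10, minimum total 15) kept 13448 genes, or 99.7% of counts. TMM factors and the robust quasi-likelihood fit came from edgeR 4.0.16 in R 4.3.3, with 1 coefficient for each of 4 groups and 7 comparisons. An SE was taken as the size of the log2 fold change divided by the root of its F, and 95% intervals use the degrees of freedom of the fit. A level per kb is CPM over the kilobases of all annotated exons of the gene joined, not of the transcript expressed. CPM here uses the total of the kept genes. A limit for 0 counts is 3 counts over the total.

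Members, marker lists and cascade lists were chosen with earlier results of these data known. Named cascade genes are the up to 4 called genes with the smallest p of each list and direction in the averages, and up to 3 in other comparisons. Genes alike needed a mean of at least 5 CPM, with a prior count of 2. Promoters are from RefSeq on GRCm38.p6. The alternatives tried were no filter, RLE factors, library size alone, a fit without robust, DESeq2 1.42.0, limma 3.58.1 voom with quality weights, only the groups compared, a myeloid covariate, a block and leaving out each library. The procedure was tested on simulated data.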

Additional observations from a re-analysis of the deposited data

How the results depend on the processing

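Plek and Rab27b were called for CD41 on average whichever of the 11 libraries was left out (2 members each time) and under each other alternative except the myeloid covariate, where 0 members were called; without a filter there were 3, with Fcer1g added. In control mice 0 members were called with library size alone (Plek 1.54) and with the covariate (Plek 1.28), 2 without a filter, and 0 to 1 when 1 library was left out. In depleted mice 2 members were called without a filter (Plek and Rab27b), 1 by DESeq2 and 1 with a block of consecutive title numbers (Rab27b in both), and 0 in each fit that left out 1 library. After depletion on average, 3 were called with the covariate, with Fcer1g added, and 1 to 3 when 1 library was left out. In CD41- cells there were 3 without a filter and by DESeq2 (P2rx1, Plek and Rgs18), 2 with only the groups compared (P2rx1 and Rgs18), 2 with the covariate (Fcer1g and Plek, but not P2rx1), and 0 to 1 when 1 library was left out. In CD41+ cells Plek, as 1 member, was called without a filter, by DESeq2 and without depleted CD41- replicate 2, so that leaving out 1 library gave 0 to 1. The difference between responses gave 0 under each alternative run. Where calls changed, the cause was not tested.

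Signs turned for values that were not called. The CD41 difference of Fcer1g was -0.42 with the covariate. When 1 library was left out, the CD41 difference of Rgs18 ran from -0.0315 to 0.297, and depletion differences ran from -0.11 to 1.13 for Clec1b, from -0.65 to 0.14 for Fcer1g and from -0.12 to 0.19 for Plcg2. Clec1b has values from 9 of these fits in each comparison.

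Counts over all genes moved more. For CD41 on average they were 724, with 93 under the covariate, 1674 without a filter and 300 to 788 when 1 library was left out. In control mice they were 352, with 78, 1142 and 48 to 545 in the same order. In depleted mice they were 26, with 12, 387 and 5 to 32. After depletion they were 851 on average, 1403 by DESeq2, and 291 to 1060 when 1 library was left out. In CD41- cells they were 429, 862 without a filter and 169 to 560. In CD41+ cells they were 14, 0 with only the groups compared, 317 without a filter and 0 to 57. For the difference between responses they were 0, 178 without a filter and 2 with the block. DESeq2 called 1441, 994, 207, 839, 257 and 35 genes for CD41 on average, in control and in depleted mice, for depletion in CD41- and in CD41+ cells and for that difference. Without a filter 1336 were called for depletion on average. Voom called 176 and 104 genes for CD41 in control and depleted mice and 8 for depletion in CD41+ cells, where the fit without robust called 7. With only the groups compared, 143 were called for CD41 in control mice.

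The labels state no pairing. Deviations of neighbouring title numbers correlated at 0.080 to 0.343, and with a block of these numbers 158 genes were called between fractions in depleted mice. Clec1b and Mpig6b rest on 57 and 17 counts: the 95% interval of the CD41 difference of Clec1b runs from 0.46 to 3.91 on the log2 scale, and Mpig6b was not tested.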
